A study of Mus musculus with 8 samples.

Results

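Schwann cells are the glia that wrap or accompany peripheral axons, and Gap43, S100b, Sox10, Ngfr, Gfap and Cdh19 are genes commonly used to mark them or the growing nerve fibres they accompany. These 6 genes were followed through arrays of pancreatic beta cell samples from mice fed control chow or a high-fat diet. The members were the probes that carry one of these 6 gene names and are no control spots, which gave 8 probes among 39429. A gene was tested if a probe was well above background on 4 or more of the 8 arrays, and 4 of the 6 genes were among the 19994 genes tested: Gap43, S100b, Ngfr and Sox10. The 3 probes of Gfap and the probe of Cdh19 were well above background on 0 of 8 arrays. Of the 4 genes measured, Gap43 had the largest diet difference, with a signal 1.78-fold lower on the high-fat diet. Its levels did not overlap between the diets, which also held for 1.71% of all genes with lower high-fat levels. In the test adjusted over all genes 0 of the 4 passed, and so did 0% of all genes in either direction.

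All animals were C57BL/6 mice, and per the labels the groups differed by diet, with 4 replicates, called biological, fed chow and 4 fed the high-fat diet. The mice's age, the length of the diet and the way the cells were isolated are not given in the sources used here, nor is whether a replicate was 1 animal or a pool. Each replicate was hybridised to its own array with Cy3 as the dye. Levels are given as the log2 of the processed signal minus the log2 of the 75th percentile of that array's signal, so that 0 stands for a spot as bright as that percentile.

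In the peripheral nerve, Sox10 is the transcription factor that specifies glia from the neural crest and is kept on in Schwann cells. Ngfr is the p75 neurotrophin receptor, carried by immature and non-myelinating Schwann cells and by some neurons, and S100b is a calcium-binding protein of Schwann cells and astrocytes. Gap43 is a membrane protein of axonal growth cones that non-myelinating Schwann cells also make, Gfap is the intermediate filament protein of astrocytes and of non-myelinating and enteric glia, and Cdh19 is a cadherin of Schwann cell precursors. Islets are surrounded by a sheet of Schwann cells and are entered by autonomic and sensory fibres, so RNA of both can be found in islet preparations.

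The probes of the 4 measured genes are shown because the values below rest on 1 probe each. Each probe has 60 bases, and bases 31 to 60 are printed 5′ to 3′ as the array design gives them; capitals mark the letters AATAAA, the usual polyadenylation signal, searched on the given strand only.
Gap43: tgaattcaaaaaccatttctgtttcctcat
S100b: tattcaaatagcgacgttttaaataatcca
Ngfr: ttcatgttccctgacacttcccctttgcat
Sox10: tccagcgataccttAATAAAgtacgtagct
Of the 4 stretches, that of Sox10 held the signal letters, as did 4174 of the 39429 probes (10.6%). The probes' GC content was 35.0% for Gap43, 36.7% for S100b, 51.7% for Ngfr and 45.0% for Sox10. In the mm9 build, the files place the Gap43 probe at chr16:42248714-42248773 on the minus strand and the S100b probe at chr10:75723783-75723842 on the plus strand. The Ngfr probe lies at chr11:95430211-95430270 and the Sox10 probe at chr15:78985518-78985577, both on the minus strand. Their place within exons was not analysed here.

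The 8 arrays had 43020 non-control spots each, of which 63.6% to 68.6% were well above background, and the 75th percentile of the signal ran from 333.6 to 710.8 intensity units. The arrays lay on 2 slides that were scanned separately, with 2 arrays of each diet on each slide. Control samples were at positions 1 and 3 of a slide and high-fat samples at positions 2 and 4, so diet and position cannot be told apart. All 11 beta cell markers were well above background on all 8 arrays, and so were all 12 acinar, 7 alpha cell, 12 endothelial and 11 macrophage markers. The acinar signal was strong. Linear signals, each divided by the array's 75th percentile, summed over the acinar list to 2190 to 4572 in control and 2677 to 4800 in high-fat samples. Over the beta cell list they summed to 878 to 1205 and 952 to 1235. Such sums rest on different probes and give no share of cells. In such bulk samples, fewer cells of a type and less RNA per cell cannot be told apart. High-fat replicate 2 had 7 spots with a local background over 4 times the array's median, and results that rest on it are also given without it. Normexp background correction, which is fitted to all spots of an array, moved the median difference of all genes from -0.0014 to 0.12 (0.027 without spots of such background). Values whose sign it turned are given with it.

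Gap43, the growth cone protein, was lower on the high-fat diet on both slides. Its levels were -0.73, -0.33, -0.73 and 0.10 in control replicates 1 to 4, and -1.34, -0.83, -1.39 and -1.46 in high-fat replicates 1 to 4. Control replicate 4 was the highest array and high-fat replicate 2 the highest of its diet, yet no high-fat array reached the lowest control array. The group means were -0.42 ± 0.40 and -1.26 ± 0.29 (SD, n = 4). The difference, high-fat minus control, was -0.83 ± 0.22 (SE), with a 95% confidence interval of -1.35 to -0.32. In limma's fit over all genes this gave an unadjusted p of 0.00561 and an adjusted p of 0.603, so Gap43 did not pass. Over all genes, the diets did not overlap for 1.71% with lower and 1.7% with higher high-fat levels; 3.32% were lower and 2.5% higher at an unadjusted p under 0.05, and 0% passed the adjusted threshold in either direction. On slide 1 the Gap43 difference was -0.56 and on slide 2 it was -1.11; the difference between slides, -0.55 ± 0.45 (SE), had an adjusted p of 0.841. The difference was -0.47 under normexp, -0.62 under normexp without the spots of high background and -0.38 in the deposited value table. That table holds the authors' own log2 values. The spots themselves read 143 to 477 intensity units.

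S100b, the calcium-binding protein, was also lower on the high-fat diet on both slides, with 1 high-fat array among the controls. The control levels were -2.11, -1.59, -2.40 and -1.57 and the high-fat levels -2.96, -1.79, -2.96 and -2.73, in replicate order. High-fat replicate 2 lay above control replicates 1 and 3, and the other 3 high-fat arrays lay below every control array. Control samples had a mean of -1.92 ± 0.41 and high-fat samples of -2.61 ± 0.55 (SD, n = 4). The difference of -0.69 ± 0.30 (SE) corresponds to a signal 1.62-fold lower, with a 95% confidence interval of -1.39 to 0.0072. S100b had an unadjusted p of 0.0519 and an adjusted p of 0.856 in limma's fit. Without high-fat replicate 2 the difference was -0.96, with an unadjusted p of 0.00365 and an adjusted p of 0.739. Under normexp it was -0.095, under normexp without the spots of high background -0.39 and in the deposited value table -0.18. By slide the differences were -0.53 and -0.86, and the adjusted p of their difference was 0.940.

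Ngfr, the p75 neurotrophin receptor, differed between diets by less than its spread, and its difference changed sign under normexp, to 0.20. Under normexp without the spots of high background the difference was -0.090. Control levels were -2.0, -1.97, -1.98 and -1.54 and high-fat levels -2.77, -1.60, -2.08 and -1.97. Both diets had 1 array near -1.6, control replicate 4 and high-fat replicate 2, and high-fat replicate 1 lay below all the others. The means of -1.87 ± 0.22 and -2.11 ± 0.48 (SD, n = 4) gave a difference of -0.23 ± 0.24 (SE), with a 95% confidence interval of -0.79 to 0.32 and an adjusted p of 0.936. Leaving out high-fat replicate 1 brought it to -0.014. The Ngfr probe is printed on 10 spots per array, of which 8 to 10 were used, and their log2 SD within an array was 0.047 to 0.22.

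Sox10, the glial transcription factor, had the smallest difference of the 4, which changed sign under normexp, to 0.31. Under normexp without the spots of high background the difference was -0.058. Levels were -1.97, -2.35, -2.46 and -2.41 on the control diet and -2.56, -1.86, -2.47 and -2.65 on the high-fat diet. The highest array was high-fat replicate 2 and the lowest high-fat replicate 4, so the high-fat range enclosed the control range. Means were -2.30 ± 0.22 and -2.39 ± 0.36 (SD, n = 4), and the difference was -0.087 ± 0.20 (SE), with a 95% confidence interval of -0.54 to 0.37 and an adjusted p of 0.967. The interval of Sox10 does not reach the Gap43 difference of -0.83; whether both genes differ in their response was not tested. Leaving out control replicate 1 turned the sign of Sox10 to 0.023, and leaving out high-fat replicate 4 to 0.0026.

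**Figure D1:**
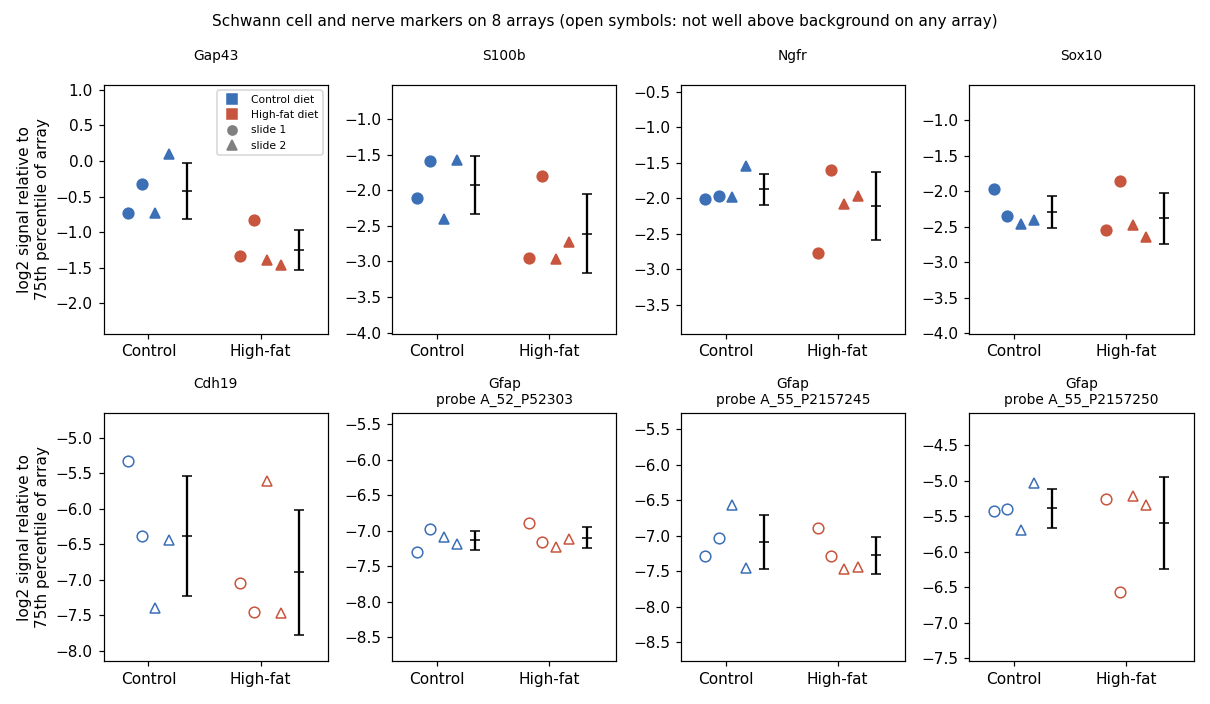
Log2 level relative to each array's 75th percentile for the 8 probes of the 6 genes, with control samples in blue and high-fat samples in red, circles for slide 1 and triangles for slide 2, and bars for the mean ± SD (n = 4). Open symbols mark probes well above background on 0 of 8 arrays; only in the Gap43 panel do all 4 high-fat arrays, -1.46 to -0.83, lie below all 4 control arrays, -0.73 to 0.10.

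Gfap and Cdh19 were dim on both diets, with no probe well above background on any array, and no fold is given for them. The 2 Gfap probes designed for transcript variant 1 read 2.46 to 4.53 and 2.27 to 4.56 intensity units, and the probe for variant 2 read 5.0 to 16.5. The variant 2 probe was positive and significant against its local background on 8 arrays, without being well above it on any; each of the others was so on 1 array. Its levels were -5.43, -5.39, -5.69 and -5.02 in control and -5.25, -6.56, -5.21 and -5.34 in high-fat samples. The Gfap probes lie on the minus strand of chromosome 11 of mm9 between 102748864 and 102752785. Cdh19 read 1.98 to 17.7 intensity units and was positive and significant on 4 arrays, with levels of -5.33, -6.38, -7.39 and -6.44 in control and -7.05, -7.45, -5.61 and -7.47 in high-fat samples. Its brightest arrays were control replicate 1 and high-fat replicate 3, 1 of each diet. The Cdh19 probe lies at chr1:112785846-112785905 on the minus strand.

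The 4 measured genes had differences below 0, with a median of -0.46 (0.053 under normexp, with 2 of 4 below 0). Under normexp without the spots of high background the median was -0.24, with 4 of 4 below 0. Over all genes tested the median was -0.0014, and 50.3% of them lay below 0. Of the 4, only Gap43 had an unadjusted p under 0.05 in limma's fit. That also held under normexp without the spots of high background (0.00481), but not under normexp (0.159) or on slide 1 alone (0.0999). S100b had such a p when either control replicate 3 or high-fat replicate 2 was left out. It also had one with array weights (0.0134), a trended and robust eBayes (0.0456), probes well above background on all arrays (0.0454) or the replicate number as a block (0.0106). In the other alternatives S100b did not, with 0.826 under normexp and 0.0620 under normexp without the spots of high background. It had 0.136 in the deposited value table and 0.316 on slide 1 alone. By slide the median was -0.36 and -0.56. The slides themselves differed at an adjusted p under 0.05 for 651 of 19989 genes (3.26%), 0 of them among the members. Slide 2 minus slide 1 was -0.063 for Gap43, 0.19 for Ngfr, -0.30 for S100b and -0.31 for Sox10. No gene had a diet difference that itself differed between slides at an adjusted p under 0.05, with 6.86% of 19963 genes at an unadjusted p under 0.05.

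Other genes of Schwann cells and myelin gave a mixed picture. Of 30 listed genes 24 were tested; 17 lay below 0 and 7 above, with a median difference of -0.26 (0.23 under normexp, with 8 below 0), and 0 passed the adjusted test. The median was -0.062 under normexp without the spots of high background, -0.023 in the deposited value table and -0.064 on slide 1 alone. An unadjusted p under 0.05 was reached by 2 lower genes and 1 higher one, against 3.32% and 2.5% of all genes. The 2 were Gpm6b, a membrane proteolipid, with -0.79 ± 0.25 (SE, adjusted p = 0.708), and Mal, a myelin and lymphocyte membrane protein, with -0.40 ± 0.16 (0.058 under normexp); the third was the endothelin receptor Ednrb, with 0.35 ± 0.14. Gpm6b levels were -1.23, -1.56, -1.17 and -1.81 in control and -2.32, -1.58, -2.39 and -2.65 in high-fat samples, with high-fat replicate 2 again among the controls. The Gpm6b difference shrank to -0.25 under normexp and to -0.25 in the deposited value table. Mbp, a protein of compact myelin, had 0.0031 ± 0.10 (SE) and turned to -0.39 under normexp, -0.071 under quantile normalization and -0.024 in the deposited value table. Fabp7, a fatty acid binding protein of immature glia, had -1.11 ± 0.53, with levels of -2.44, -1.30, -2.27 and -1.17 in control and -2.95, -1.55, -3.06 and -4.06 in high-fat samples. Its difference shrank to -0.23 under normexp and to -0.22 in the deposited value table. Of 2 further defining genes of the lineage, the neuregulin receptor Erbb3 was well above background on at most 1 array and the crest factor Foxd3 on 0. The list's linear signals, each divided by the array's 75th percentile, summed to 22.0 to 23.8 in control and 19.4 to 22.5 in high-fat samples.

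Genes of neurons and axons had larger differences. Of 25 listed genes 22 were tested; 20 lay below 0 and 2 above, the median was -0.81, and 0 passed the adjusted test. That median was -0.18 under normexp, with 14 of the 22 genes below 0 and 8 above. It was -0.24 under normexp without the spots of high background (18 below 0) and -0.15 in the deposited value table (22 below 0). Of the 22 genes, 16 were well above background on all 8 arrays, against 22 of the 24 tested in the Schwann lineage list. An unadjusted p under 0.05 was reached by 4 lower genes of the 22 and 0 higher ones, against 3.32% and 2.5% of all genes. Of these 4, 2 are given here: the sensory neuropeptide precursor Calca, with -0.83 ± 0.26, and Hand2, a factor of sympathetic neurons, with -0.79 ± 0.33 (SE). Under normexp Calca and Hand2 turned to 0.52 and 0.26; without the spots of high background they were -0.089 and -0.24, and in the deposited value table -0.049 and -0.098. Calca cleared the background on 4 arrays of the control diet and 3 of the high-fat diet. The count of 4 depended on the samples and on the processing. It was 13 without high-fat replicate 2, 10 without control replicate 1 or control replicate 3, and 2 without any 1 of the other 5. Under median scaling and under normexp without the spots of high background it was 3. It was 2 under normexp and under quantile normalization, and 0 in the deposited value table. On slide 1 alone it was 1 and on slide 2 alone 9, with 19 and 22 of the 22 genes below 0. The share of all genes with such a p was not counted under these settings, so the changes cannot be called particular to the list.

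Peripherin (Prph), the intermediate filament of peripheral neurons, shows the spread behind those counts. Its levels were -0.90, 0.54, -1.57 and 0.76 in control and -2.16, 0.01, -2.43 and -2.93 in high-fat samples, a difference of -1.59 ± 0.74 (SE, adjusted p = 0.857). Control replicates 2 and 4 and high-fat replicate 2 were high, and high-fat replicate 4 was the lowest. The neuropeptide Vip, chosen after its values were seen, had the same high arrays, with -1.19, 1.23, -0.15 and 2.71 in control and -1.49, 0.52, -1.43 and -2.71 in high-fat samples. The transmitter enzymes Chat and Th had smaller differences, -0.37 ± 0.26 (0.66 under normexp, 0.036 without the spots of high background) and -0.077 ± 0.10 (SE; 0.00018 under median scaling), and Chat cleared the background on 3 arrays of the control diet and 1 of the high-fat diet. Summed over the list, the linear signals were 13.1, 19.7, 14.4 and 27.3 in control and 11.7, 16.5, 11 and 9.93 in high-fat samples, so the diets overlapped.

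**Figure D2:**
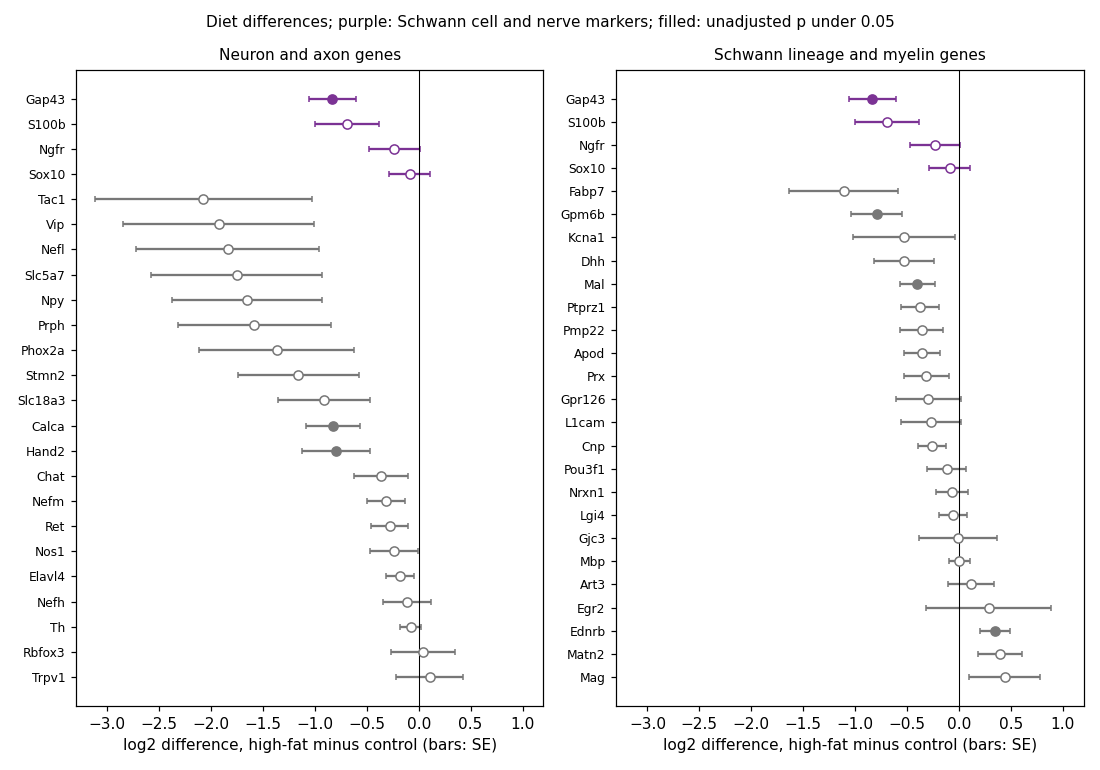
Log2 difference, high-fat minus control, with its SE for the neuron and axon genes (left) and the Schwann lineage and myelin genes (right), each below the 4 measured markers in purple; filled symbols have an unadjusted p under 0.05. On the left 18 of the 20 genes plotted lie below 0 and on the right 16 of 22; the medians of the whole lists are -0.81 and -0.26 (0.23 under normexp for the latter).

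**Figure D3:**
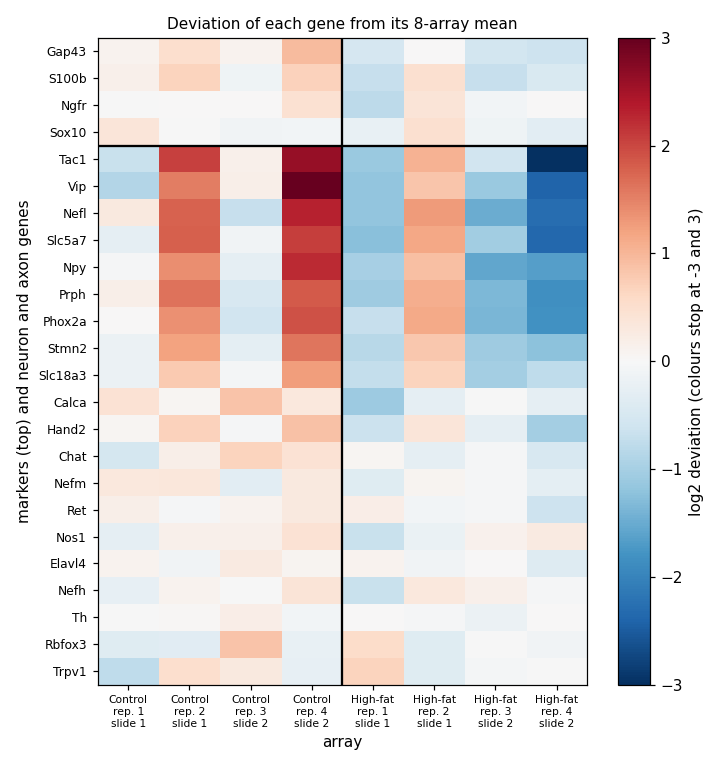
Deviation of each gene's log2 level from its own 8-array mean, with the 4 measured markers above the horizontal line, 20 neuron and axon genes below it, and control arrays left of the vertical line. Red columns at control replicates 2 and 4 and at high-fat replicate 2 mark the arrays on which S100b and the upper block of neuron genes are high, while Gap43 is high on the control arrays among these and near its mean on high-fat replicate 2; the colours stop at -3 and 3.

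Gap43 and S100b varied from array to array along with the neuron and axon genes. The mean level of the 22 genes was -2.13, -1.24, -1.99 and -0.95 on control and -2.60, -1.63, -2.62 and -3.11 on high-fat arrays. Over the 8 arrays Gap43 correlated with this mean at r = 0.95 (exact permutation p = 4.46e-04 over 40320 pairings, two-sided; 0.00625 adjusted by Benjamini-Hochberg over 14 relations) and at Spearman's rho = 0.90 (exact permutation p = 0.00456, adjusted 0.0319). Without control replicate 4 and high-fat replicate 4, the farthest from the median, r was 0.92. For S100b, r was 0.92 (exact permutation p = 0.00283, adjusted 0.0154), rho was 0.90 (exact permutation p = 0.00456, adjusted 0.0319) and r without the same 2 arrays 0.96. Diet contributes to such a pooled value, so the diet means were also subtracted: r of the remaining deviations was 0.95 for Gap43 and 0.86 for S100b. Each slide holds 4 arrays, too few for a test; there r was 0.90 and 0.98 for Gap43 and 0.96 and 0.93 for S100b. All of these values share the arrays and the scaling to the 75th percentile. Under 5 other scalings r ran from 0.91 to 0.96 for Gap43 and from 0.89 to 0.95 for S100b, and without high-fat replicate 2 it was 0.98 and 0.92.

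Among the markers themselves, Gap43 and S100b also varied together, with r = 0.90 (exact permutation p = 0.00330, adjusted 0.0154) and rho = 0.86 (exact permutation p = 0.0107, adjusted 0.0375). Without high-fat replicates 1 and 3 r was 0.86, with the diet means subtracted it was 0.86, and on the slides it was 0.92 and 0.98. S100b and Ngfr had rho = 0.86 (exact permutation p = 0.0107, adjusted 0.0375) but r = 0.73 (exact permutation p = 0.0172, adjusted 0.0602), and r fell to 0.56 without high-fat replicate 1 and control replicate 4; on the slides it was 0.90 and 0.97. Of the 14 relations these 4 passed by at least one coefficient. Ngfr and Sox10 had r = 0.60 and r = 0.41 with the mean of the neuron and axon genes (exact permutation, adjusted p = 0.272 and 0.429). Under the other scalings these ran from 0.59 to 0.82 and from 0.19 to 0.72, and on the slides they were 0.77 and 0.86 for Ngfr and 0.32 and 0.83 for Sox10. Within control samples r was 0.77 for Ngfr and -0.54 for Sox10, and within high-fat samples 0.46 and 0.97, on 4 arrays each. With the mean of the Schwann lineage genes the 4 markers had r between 0.23 and 0.37, none of which passed (exact permutation, adjusted p from 0.429 to 0.663). Without control replicate 3 and high-fat replicate 1, the farthest from the median of that list, r was 0.45 for Gap43, 0.55 for S100b, 0.61 for Ngfr and 0.86 for Sox10. In the same order r was -0.56, -0.88, -0.26 and -0.30 within control samples, and 0.89, 0.95, 0.88 and 0.93 within high-fat samples. With the diet means subtracted it was -0.20, -0.15, 0.24 and 0.18. The low pooled values thus joined opposite signs in the diets, with 4 arrays each, too few for a test. Spearman's rho with the Schwann list was highest for Sox10, at 0.71 (exact permutation, adjusted p = 0.121). The other pairs of markers did not pass either. Between Gap43 and Ngfr r was 0.61 and dropped to 0.22 without its 2 farthest arrays. Sox10 had 0.31, 0.55 and 0.44 with Gap43, S100b and Ngfr, against 0.78, 0.74 and 0.65 without the 2 farthest arrays of each pair. In the same order Sox10 had -0.44, -0.16 and -0.40 within control samples and 0.99, 0.92 and 0.65 within high-fat samples.

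**Figure D4:**
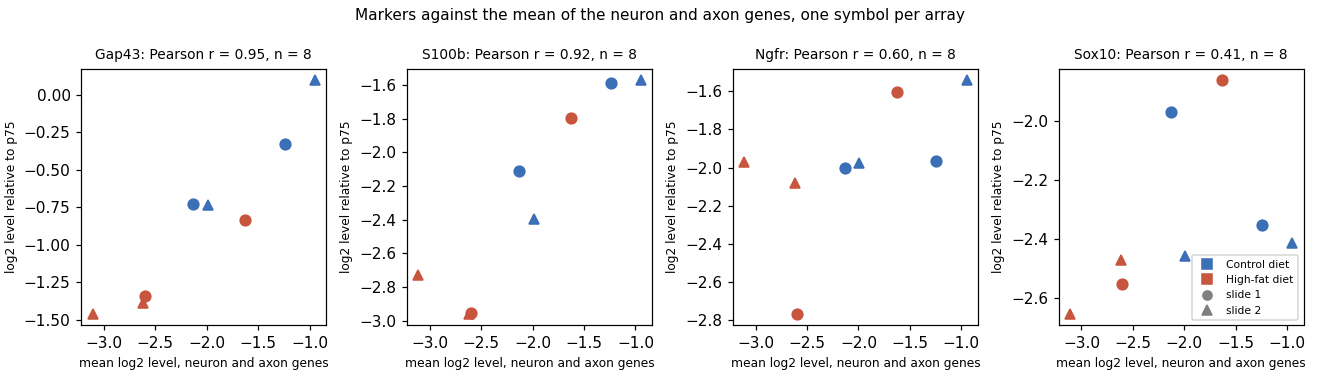
Log2 level of each measured marker against the mean log2 level of the 22 neuron and axon genes, 1 symbol per array, with control samples in blue, high-fat samples in red, circles for slide 1 and triangles for slide 2. Pearson's r is 0.95 for Gap43, 0.92 for S100b, 0.60 for Ngfr and 0.41 for Sox10 (n = 8 arrays).

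The genes whose profile over the 8 arrays was most like a marker's were taken from the whole table, as a description. For Gap43 they were Pdgfd, Wscd2 and BB086117, with r from 0.963 to 0.967, and 81 of 19860 genes (0.408%) had an r over 0.9. For S100b they were Uchl1, Syt1 and Camta1, with r from 0.974 to 0.980, and 80 genes were over 0.9. Ngfr was followed most closely by Med9os, Slfn3 and Adcy2 (r from 0.953 to 0.968, 15 genes over 0.9), and Sox10 by Prss22, Lrp8os1 and Spsb1 (r from 0.937 to 0.951, 7 genes over 0.9).

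The ligands and receptors around Ngfr lay on both sides of 0. Of 14 genes of the neurotrophin system 11 were tested, with 6 above 0, 5 below and a median of 0.068 (-0.039 without control replicate 1, -0.054 without control replicate 2); 1 of each side had an unadjusted p under 0.05, and 0 passed the adjusted test. Sort1, a co-receptor of Ngfr, had -0.14 ± 0.13 (SE). The BDNF receptor Ntrk2 had 0.55 ± 0.23 (SE), the higher of the 2 genes with such a p. Its difference was 0.046 under normexp, 0.46 under normexp without the spots of high background and 0.39 in the deposited value table.

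Nrg1, the axonal growth factor that drives Schwann cell survival and myelination, had a difference close to that of Gap43. Its levels were -3.78, -3.07, -3.21 and -2.94 in control and -3.80, -4.03, -4.31 and -4.29 in high-fat samples. The diets did not overlap, which also held for 1.71% of all genes with lower high-fat levels. Control replicate 1 and high-fat replicate 1 were nearly equal. The difference was -0.86 ± 0.20 (SE), 1.81-fold lower, with an adjusted p of 0.527, and it turned to 0.42 under normexp. It was -0.20 under normexp without the spots of high background and -0.085 in the deposited value table. Of the 6 neuregulin and receptor genes listed, the other one tested was the receptor Erbb2, and the rest were well above background on at most 3 arrays.

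Gene families of the markers had medians on both sides of 0. In the S100 family 11 of 14 genes were tested, 8 above 0 and 3 below, with a median of 0.10 (-0.0023 under normexp); S100a1 had 0.27 ± 0.11 (SE; -0.0023 under normexp) and S100a6 -0.0048 ± 0.26 (SE; 0.072 under median scaling and 0.0050 under normexp without the spots of high background). The growth-associated genes, 8 of 8 tested, had 3 above 0 and 5 below and a median of -0.050 (0.14 under normexp and 0.027 under median scaling), and Basp1, a growth cone protein with a role close to that of Gap43, had -0.073 ± 0.26 (SE; 0.084 under normexp and 0.0038 under median scaling). Sox9, like Sox10 a SoxE factor, had 0.0019 ± 0.51 (SE; -0.012 in the deposited value table), with 1.06 on slide 1 and -1.06 on slide 2. Among 6 intermediate filament genes, where Gfap belongs, 4 lay below 0 and 2 above; vimentin (Vim) had -0.35 ± 0.25 and syncoilin (Sync) -0.38 ± 0.14 (SE; 0.54 under normexp). Of 12 type II cadherins, the family of Cdh19, 7 were tested, 4 above 0 and 3 below, with a median of 0.083 (-0.061 without control replicate 4). Without control replicate 3 the median of the growth-associated genes was 0.13. None of these genes passed the adjusted test.

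Markers of other cells had medians on both sides of 0, and their part in the Gap43 and S100b values was not tested. Stellate cell and pericyte genes had a median of 0.23 (9 of 13 above 0; 0.029 without control replicate 2 and -0.026 without high-fat replicate 4), with summed signals of 10.1 to 16.9 in control and 9.51 to 16.5 in high-fat samples. Endothelial genes had a median of 0.079 and acinar genes 0.12, and both turned below 0 under normexp, to -0.043 and -0.30. The endothelial median was -0.026 without control replicate 4, and the acinar one -0.059 without control replicate 1 and -0.017 without high-fat replicate 1. Macrophage genes lay below 0 in 10 of 11 cases, with a median of -0.37. Of the 11 genes, 0 had levels that did not overlap between the diets, and 0 had an unadjusted p under 0.05 in limma's fit. Only their summed signals did not overlap, at 24.5 to 30.6 in control and 19.7 to 24.0 in high-fat samples. How often sums of other genes do so was not counted. Alpha cell genes had a median of -0.78 (6 of 7 below 0) and delta and PP cell genes -0.42 (6 of 6 below 0), while beta cell genes had 0.026 (-0.39 under normexp, below 0 under normexp without the spots of high background, under quantile normalization, in the deposited value table and without any one sample other than control replicate 4). Of the defining markers, Pdgfra of the stellate list and Adipoq of the adipocyte list were well above background on 0 arrays.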

How the data were processed

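Total RNA of 8 samples was labelled with Cy3 and hybridised to 1-colour Agilent mouse arrays. Per the file headers, the authors' scanner files were made with Feature Extraction 11.5.1.1 and hold a processed signal for each spot, in intensity units. The authors also deposited a table of log2 values of the same arrays, for which the submitters' processing notes name limma; each of its columns matched its own array best (r from 0.596 to 0.689 over 28061 probes), its column medians were 8.681 to 8.689, and its further processing is unknown.

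From the deposited signals, outlier spots (125 to 228 per array) and control spots were left out, log2 values were taken relative to each array's 75th percentile, and spots of a probe were averaged. A probe counted as well above background where most of its spots were so marked. Probes so marked on at least 4 arrays, 26076 in all, were kept, and the brightest stood for a gene, or for itself where the files give no gene name beyond the probe's. limma 3.58.1 (lmFit and eBayes, R 4.3.3) compared the diets, with Benjamini-Hochberg adjustment and a threshold of 0.05; SEs of the log2 differences had a median of 0.17. Tables and figures used Python 3.11.15, pandas 2.3.3, numpy 2.4.6 and matplotlib 3.10.9, and the procedure was tested on simulated data. The number of arrays limits the precision. P-values measure the spread between the 4 replicates of a diet, which the labels call biological.

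The members and the gene lists were chosen with earlier results of these data known. Genes named are the 6 members, up to 4 genes per list with the smallest p among those with an unadjusted p under 0.05, a fixed set of nerve and glia genes, and the 3 genes most correlated with each member. Some genes that this rule names are left out here by name, and the list counts include them. Alternatives were other background corrections and scalings, other filters, slide or replicate blocks, single slides, and leaving out samples one at a time.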

Additional observations from a re-analysis of the deposited data

Results flagged for a closer look

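Of 68 groups of 4 samples, 34 genes in each diet, 4 held a sample far from the other 3, where chance gives about 1 in 20. Ngfr in control replicate 4 was at -1.54, with the other control samples between -2.0 and -1.97. Ednrb in the same sample was at -2.19, with the others between -2.63 and -2.57. Sync, also in control replicate 4, was at -3.25, with the others between -3.71 and -3.65. Irx1, an alpha cell factor, was at 1.25 in control replicate 3, with the others between 0.60 and 0.69.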

How the results depend on the processing

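Over 22 alternatives Gap43 stayed below 0, from -1.11 to -0.38 (limma, adjusted p from 0.271 to 0.966), and so did S100b, from -0.96 to -0.095 (adjusted p from 0.417 to 1). Ngfr ran from -0.40 to 0.20 and turned only under normexp (0.20); Sox10 ran from -0.26 to 0.31 and turned under normexp (0.31), without control replicate 1 (0.023) and without high-fat replicate 4 (0.0026). Leaving out 1 sample gave -0.97 to -0.66 for Gap43, -0.96 to -0.58 for S100b, -0.40 to -0.014 for Ngfr and -0.26 to 0.023 for Sox10. The count of genes past the adjusted threshold was 0, with 1162 at an unadjusted p under 0.05; it was 1 in the deposited value table, 1 with a trended and robust eBayes and 0 to 2 on leaving out a sample, with 2 without high-fat replicate 1, and members were called under 0 of the 22. With no filter on dim probes 8 member probes entered in place of 4. Genes that differed between slides numbered 651, against 0 under normexp, 187 under normexp without spots of high background, 302 under median scaling and 988 in the deposited value table. The median of the neuron and axon genes, -0.81, was -0.18 under normexp, -0.24 without the spots of high background and -0.15 in the deposited value table. That of the Schwann lineage genes, -0.26, was 0.23 under normexp, -0.062 without the spots of high background, -0.023 in the deposited value table and -0.064 on slide 1 alone. The causes were not tested. Leaving out samples, quantile normalization and the value table were added for the lists after the data were seen. With the replicate number as a block, limma gave an adjusted p of 0.492 for Gap43 and 0.50 for S100b, and 0 genes passed. Same-numbered samples correlated at 0.21, 0.40, -0.0041 and 0.30. The high-fat sample that best matched a control sample had the same number for controls 1, 2 and 4 but not 3. These values do not settle whether the numbers pair the samples. The labels give no pairing, so the main fit had none. Dim probes limit what can be said of Gfap and Cdh19.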

Other observations

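The acinar genes had differences of opposite sign on the slides: on slide 1 all 12 were above 0, with a median of 0.58, and on slide 2 all 12 were below 0, with a median of -0.40; the change of the list between slides was not tested. Neuron and axon genes lay below 0 on both slides, with medians of -0.49 and -0.94. The alpha cell factor Irx1, with -1.10 ± 0.21, and the delta cell factor Hhex, with -0.60 ± 0.10 (SE; limma, adjusted p = 0.372 and 0.336), did not pass the threshold.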
